A study of Mus musculus with 8 samples.

Results

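Teneurins, latrophilins and FLRT proteins are the 10 genes described here, taken by symbol from the 48526 genes of the count table: Tenm1, Tenm2, Tenm3 and Tenm4, Adgrl1, Adgrl2 and Adgrl3, and Flrt1, Flrt2 and Flrt3. The set was selected on the left against right counts of Tenm4, which were higher on the left in each embryo. Its left against right values are therefore a description with no test, and the other 9 genes were taken as its relatives and binding partners. The libraries came from the micro-dissected heart field of 4 wild-type male C57bl6/J mouse embryos (L29-3, L43-5, L46-8 and L49-3) at stage E8.5f. Each embryo was bisected at the midline and its left and right sides were sequenced as separate poly-A RNA libraries, which gave 4 left and 4 right libraries paired by embryo. No embryo carried a mutation or received a treatment, and the comparison is between the sides of single embryos.

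Teneurins are very large transmembrane proteins that form dimers and bind across the gap between cells. Latrophilins are adhesion G protein-coupled receptors, named after a member that binds the black widow toxin, and they are the classical receptors of teneurins. FLRT proteins carry leucine-rich repeats and a fibronectin domain. They can occupy the same latrophilin at a separate site, and they can also bind UNC5 receptors. The 3 families are best known for guiding axons and building synapses, but they also act in the early embryo. Tenm4 is needed for mesoderm formation at mouse gastrulation, Flrt3 for the ventral closure of the embryo, and Flrt2 for the integrity of the epicardium.

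The count totals ranged from 1147446 to 3520753 per library, and embryo L49-3 had the lowest total on each side. A count of 0 allowed a level of up to 0.864 to 2.71 CPM (counts scaled to an equal library total), depending on the library, counting error only. The 10 second heart field markers examined were all well detected, with summed normalized counts of 842 to 1308 on the left and 1118 to 1225 on the right. The dissected tissue was mixed, and markers of neural tube, foregut endoderm, endothelium, paraxial mesoderm, surface ectoderm, neural crest and cardiomyocytes were also counted. In such bulk samples, fewer cells of a type and less RNA per cell cannot be told apart.

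Tenm4 (ENSMUSG00000048078) spans 740 kb of chromosome 7 on the plus strand (GRCm38, chr7:96171246-96911093). RefSeq (GRCm38.p6) places a pair of transcription starts in it, and the 250 bases upstream of each are printed because Tenm4 is the gene on which the set was selected. Both windows read 5′ to 3′ on the plus strand, with each CpG in capitals. The first lies just outside the annotated gene and the second inside its span, between annotated exons.
Tenm4 upstream start, chr7:96170994-96171243: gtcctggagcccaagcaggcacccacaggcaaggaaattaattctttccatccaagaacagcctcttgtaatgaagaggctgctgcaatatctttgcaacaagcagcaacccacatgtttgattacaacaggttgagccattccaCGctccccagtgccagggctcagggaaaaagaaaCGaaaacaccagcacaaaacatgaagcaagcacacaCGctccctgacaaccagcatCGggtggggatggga
Tenm4 downstream start, chr7:96211421-96211670: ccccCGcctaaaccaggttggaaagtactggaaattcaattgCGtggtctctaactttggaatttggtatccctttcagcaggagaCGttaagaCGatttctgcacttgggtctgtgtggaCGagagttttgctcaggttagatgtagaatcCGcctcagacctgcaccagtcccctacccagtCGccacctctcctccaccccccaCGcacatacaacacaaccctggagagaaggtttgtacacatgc
The upstream window held 4 CpG and 50.8% G and C, and the downstream window held 8 CpG and 51.6%. The median over 32536 mouse promoter windows of the same length was 6 CpG and 52.4%, between the CpG numbers of these windows. Promoter windows were found for 9 of the 10 genes, all but Flrt1. They ranged from 0 CpG upstream of Tenm1 to 36 CpG upstream of 1 of the 3 starts of Adgrl3. For Tenm1, Adgrl1 and Flrt3 the bases after the RefSeq start were found in no annotated transcript of the gene, so these starts are uncertain. The windows of Tenm1, Tenm2, Tenm3, Adgrl2 and Adgrl3 lie inside the annotated span of their gene. Motifs of the Nodal pathway, which acts on the left, were searched on both strands. The FOXH1 motif AATCCACA, present in 0.713% of all windows, and the SMAD palindrome GTCTAGAC, present in 0.169%, were in none of the members' windows. The TATA box letters TATAAA, in 12.3% of all windows, were found upstream of Tenm1, Adgrl2 and 1 start of Adgrl3. The GC box letters GGGCGG, in 33.0%, were found upstream of Adgrl1 and Adgrl3. These motifs do not overlap one another by their letters, and a match or its absence describes only these windows.

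The members' coding sequences were well apart from one another. Over the longest coding sequences, identity was 61.8% to 69.3% between teneurins, 62.1% to 67.3% between latrophilins and 53.1% to 59.5% between FLRT genes. No member shared a stretch of at least 100 bases at 90% identity or more with another member. Adgrl3 shared such stretches with transcripts of 656 other genes, so its counts are uncertain. The strand setting of the counting was not given, and reads from an antisense gene over shared exons cannot be told apart from those of a member. Tenm4 shares 988 exon bases with the antisense gene C230038L03Rik, which had 1 read in all 8 libraries. The genes overlapping Adgrl1, Adgrl2, Adgrl3, Tenm1 and Tenm3 on the opposite strand each had 19 reads or fewer in total.

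The families fell into a well expressed and a barely detected group. Per kilobase of exon, Flrt3 had the highest level with 27.1 ± 1.97 CPM (SD over 8 libraries of 4 embryos). Tenm3 followed with 22.4 ± 2.47, Adgrl1 with 19.8 ± 2.26, Adgrl2 with 17.5 ± 1.44, Flrt2 with 13.6 ± 1.49 and Tenm4 with 10.2 ± 1.64 CPM per kilobase. Each neighbour in this order was above the next in 8 of 8 libraries, except that Tenm3 was above Adgrl1 in 6 of 8. Below a wide gap came Adgrl3 at 0.551 ± 0.214, Tenm2 at 0.374 ± 0.212, Flrt1 at 0.163 ± 0.122 and Tenm1 at 0.0303 ± 0.0377 CPM per kilobase. Neighbours in this low group were in that order in 6 or 7 of 8 libraries, and their spreads overlapped. The order within the upper group depended on the length used. With the longest transcript in place of all exons, Adgrl2 came first at 41.0 CPM per kilobase, before Flrt3 at 33.1, Tenm3 at 25.5, Adgrl1 at 20.8, Tenm4 at 16.3 and Flrt2 at 14.8. The same 4 genes formed the low group with either length.

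**Figure D1:**
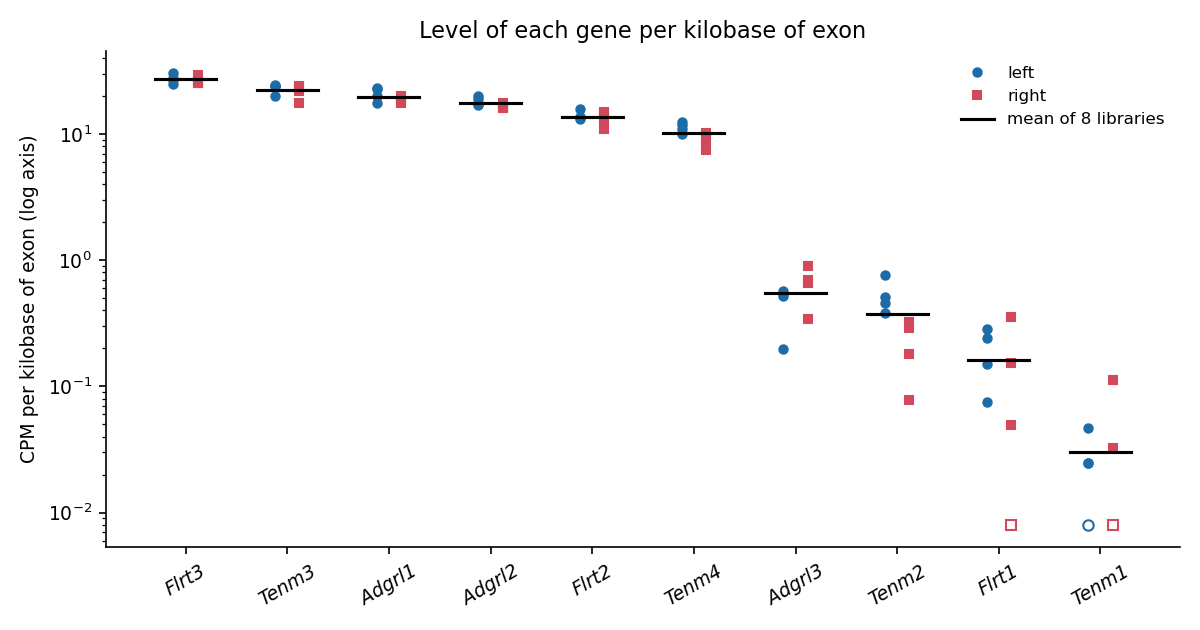
Level of each gene in CPM per kilobase of exon (log axis), 1 point per library, left in blue circles and right in red squares, with the mean of 8 libraries as a bar. Open points at the bottom are libraries with a count of 0. The 6 genes from Flrt3 to Tenm4 lie at 7.43 or above in every library, and the other 4 lie below 1.

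Each family therefore had members on both sides of the gap. Of the teneurins, Tenm3 and Tenm4 were expressed and Tenm1 and Tenm2 were not well detected. Of the latrophilins Adgrl3 was low, and of the FLRT genes Flrt1. A gene was tested when its normalized count, that is the count divided by the DESeq2 size factor of the library, reached 20 in 4 or more of the 8 libraries. This left 9744 genes in all and 6 of the 10 members. On GRCm38 the other tested members are Tenm3 (chr8:48227682-48843951, minus strand), Adgrl1 (chr8:83900105-83941954, plus), Adgrl2 (chr3:148815583-148990555, minus), Flrt2 (chr12:95692226-95785215, plus) and Flrt3 (chr2:140650914-140671469, minus). The low members are Tenm1 (chrX:42527866-43429126, minus), Tenm2 (chr11:36006656-37235964, minus), Adgrl3 (chr5:81020138-81825133, plus) and Flrt1 (chr19:7092001-7105729, minus). The teneurin genes are long, with spans of 616 kb to 1229 kb, against 13.7 kb to 93.0 kb for the FLRT genes.

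Tenm4 counts were higher on the left in each of the 4 embryos. Embryo L29-3 had 484.8 normalized counts on the left against 387.5 on the right. L43-5 had 429.0 against 339.9, L46-8 386.6 against 288.1, and L49-3 462.9 against 395.5. The left libraries lay between 386.6 and 484.8 and the right ones between 288.1 and 395.5, so the sides overlapped between embryos while each embryo kept the same direction. The left mean was 441 ± 42.8 and the right mean 353 ± 49.6 (SD, n = 4). The fitted log2 fold change was 0.33 (SE 0.0700), a fold of 1.25. This contrast chose the gene, and no p is given for it.

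The Tenm4 difference was of similar size from embryo to embryo. The left to right fold was 1.26 in L29-3 (exact Clopper-Pearson 95% interval from the counts, 1.09 to 1.45), 1.26 in L43-5 (1.13 to 1.41), 1.33 in L46-8 (1.14 to 1.57) and 1.16 in L49-3 (0.978 to 1.38). These intervals cover counting error only. The interval of L49-3, the embryo with the fewest counts, was the one that included 1. Leaving out each embryo in turn, and every other setting tried, left the log2 fold change between 0.30 and 0.36. Tenm4 was selected for a left excess in each embryo, which favours even and large values. These folds, intervals and settings therefore describe the selected counts and do not test the difference. Just inside the study's threshold of a fold of 1.2, Tenm4 stood at 1.25, and the next member outside it was Adgrl1 at a fold of 1.11.

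**Figure D2:**
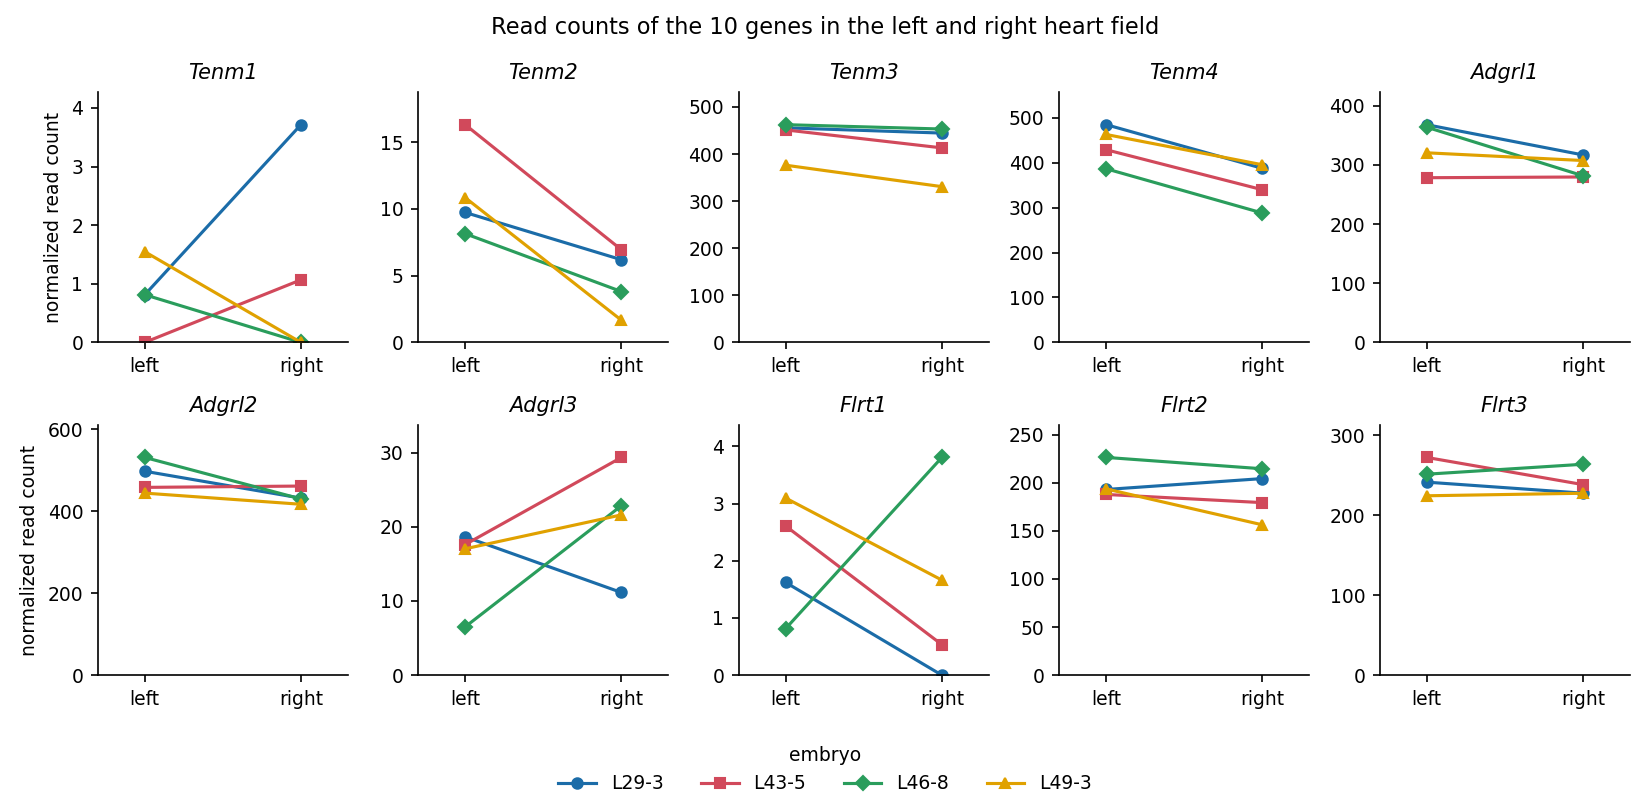
Normalized read count of each of the 10 genes on the left and right of the heart field, 1 line per embryo, with axes from 0 that differ between panels. Tenm4 and Tenm2 fall from left to right in 4 of 4 embryos, as does Tenm3 by a smaller amount, while the lines of the other genes differ in slope or direction between embryos.

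Tenm3, the closest well expressed relative of Tenm4 and a gene known for matching neurons to their targets, had nearly equal counts on the sides. Normalized counts, left against right, were 455.6 against 444.4 for L29-3, 451.2 against 413.0 for L43-5, 462.3 against 453.0 for L46-8, and 376.2 against 330.7 for L49-3. The left value was the larger in each of the 4 embryos, but the fitted log2 fold change was 0.09 (SE 0.0684, edgeR quasi-likelihood test, adjusted p = 0.987). The 95% interval of that log2 fold change ran from -0.05 to 0.22, which includes no difference. The fitted value of Tenm4 was selected on this contrast, and a difference between the teneurins was not tested. Among all tested genes 6.26% were higher on the left in each embryo, and of the 5 tested members other than Tenm4 only Tenm3 was.

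Because both teneurins were counted in the same library, their ratio does not depend on the scaling between libraries. Tenm4 reads per Tenm3 read were 1.06 on the left against 0.872 on the right for L29-3, 0.951 against 0.823 for L43-5, 0.836 against 0.636 for L46-8, and 1.23 against 1.2 for L49-3. The left ratio was the larger in each embryo, though by little in L49-3, where the log2 difference was 0.04 against 0.21 to 0.40 in the others. It also differed between embryos by more than between the sides, from 0.636 to 1.2 on the right alone. These ratios share the Tenm4 counts that chose the gene and carry no test.

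**Figure D3:**
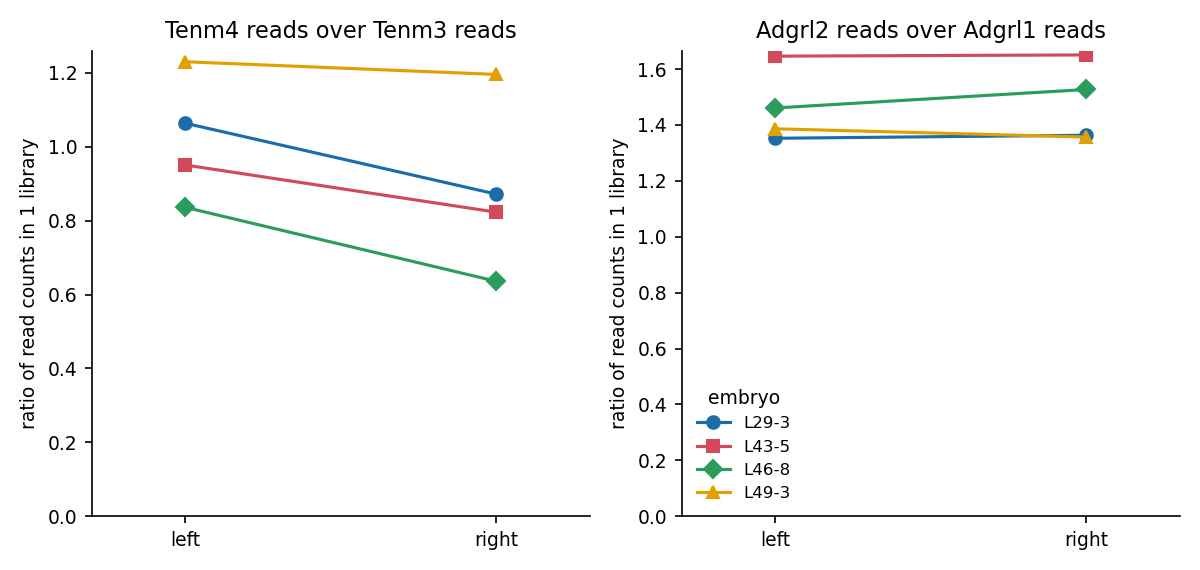
Ratio of read counts within 1 library, left and right, with 1 line per embryo: Tenm4 over Tenm3, and Adgrl2 over Adgrl1. The first falls from left to right in each embryo, by least in L49-3, and the second is nearly flat, with log2 differences of -0.06 to 0.03.

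The expressed latrophilins had fitted values above 0 that did not pass the test. Adgrl1, a receptor of teneurins and FLRT proteins, had normalized counts, left against right, of 368.0 against 316.9 for L29-3, 278.4 against 279.6 for L43-5, 363.8 against 281.7 for L46-8, and 320.5 against 307.4 for L49-3. Its log2 fold change was 0.16 (SE 0.0827, edgeR quasi-likelihood test, adjusted p = 0.987). Adgrl2, a latrophilin first linked to the heart through the formation of the valve mesenchyme, had 497.7 against 432.1 for L29-3, 458.3 against 461.6 for L43-5, 531.5 against 430.2 for L46-8, and 444.4 against 417.1 for L49-3. Its log2 fold change was 0.14 (SE 0.0737, edgeR quasi-likelihood test, adjusted p = 0.987). Both genes had the larger count on the left in 3 of 4 embryos, and both were even in L43-5. The values rested in part on single embryos. Without L46-8 the log2 fold change was 0.09 for Adgrl1 and 0.09 for Adgrl2, and without L43-5 it was 0.22 and 0.20, with unadjusted p of 0.0446 and 0.0384 and an adjusted p of 0.974 for each. The 95% intervals of the log2 fold changes over 4 embryos were -0.01 to 0.32 for Adgrl1 and -0.00 to 0.29 for Adgrl2.

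The 2 latrophilins had a like difference between the sides of an embryo, but not the same order of embryos. The ratio of Adgrl2 to Adgrl1 reads in a library was 1.35 on the left against 1.36 on the right for L29-3, 1.65 against 1.65 for L43-5, 1.46 against 1.53 for L46-8, and 1.39 against 1.36 for L49-3. The sides of 1 embryo thus had log2 ratios that differed by -0.06 to 0.03, left minus right, while the ratio was highest in L43-5 on either side. Adgrl1 was lowest in L43-5, with a mean of 279 normalized counts, and Adgrl2 in L49-3, with 431.

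The expressed FLRT genes showed the smallest differences. Flrt2, which binds UNC5 receptors as well as latrophilins, had a left mean of 200 ± 17.6 normalized counts against 189 ± 26.1 on the right (SD, n = 4), with a log2 fold change of 0.08 (SE 0.0913, edgeR quasi-likelihood test, adjusted p = 0.987). That value was 0.02 without L49-3 and 0.13 without L29-3. Its pairs, left against right, were 192.9 against 204.3 for L29-3, 187.8 against 179.3 for L43-5, 226.3 against 214.5 for L46-8, and 193.5 against 156.2 for L49-3. Flrt3, which also acts with FGF receptors, had 241.6 against 227.8 for L29-3, 272.5 against 238.5 for L43-5, 251.5 against 263.9 for L46-8, and 224.5 against 227.7 for L49-3. The left value was the larger in 2 of 4 embryos, and the log2 fold change was 0.05 (SE 0.0834, edgeR quasi-likelihood test, adjusted p = 0.987). The sign of that value turned when L43-5 was left out (-0.0048), and it was 0.10 without L46-8.

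**Figure D4:**
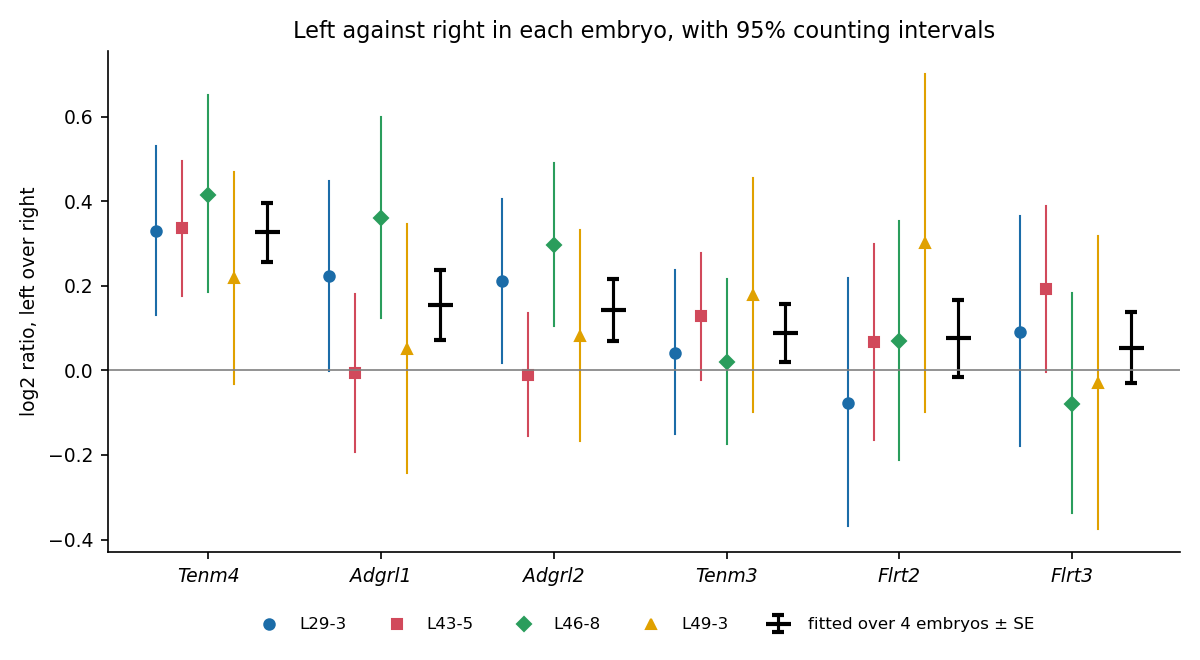
log2 ratio of left to right for the 6 tested genes. Coloured points are single embryos with exact 95% intervals from the counts, and black bars are the values fitted over 4 embryos ± SE. For Tenm4 the 4 points lie between 0.22 and 0.41, and the intervals of the other 5 genes include 0 except for Adgrl2 in L29-3 and for Adgrl1 and Adgrl2 in L46-8.

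Over the 5 tested members other than Tenm4 the fitted log2 fold change was above 0 in 5, against 48.6% of all tested genes. Their median was 0.09, for a median of -0.00 over all 9744 genes. None of the 5 was past the study's threshold of a fold of 1.2 or more with an unadjusted p no higher than 0.05, which 1.63% of all tested genes passed as higher on the left and 1.42% as higher on the right. By an adjusted p under 0.05, 0 of these 5 were called by edgeR, by DESeq2 or by limma-voom, and 0.0103% of all genes were by edgeR. In the edgeR fit 0 of the 5 had an unadjusted p of at most 0.05, against 425 of all 9744 tested genes. The lowest were 0.0775 for Adgrl2 and 0.0848 for Adgrl1. All 4 left libraries were above all 4 right libraries for 0 of the 5 and for 1.51% of all tested genes.

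The 4 barely detected members were not tested. Tenm1, which lies on the X chromosome, had 8 reads in all, between 0 and 3 per library. Flrt1, whose gene lies within Macrod1 on the opposite strand with no shared exon base, had 14 reads, between 0 and 4 per library. Neither gave a usable comparison at this depth.

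Tenm2, a teneurin known as a ligand of latrophilin at synapses, had 76 reads in all, of which 54 were on the left. Its reads, left against right, were 12 against 5 for L29-3, 25 against 13 for L43-5, 10 against 3 for L46-8, and 7 against 1 for L49-3. After normalization the left libraries held 8.14 to 16.3 and the right ones 1.66 to 6.94, so the sides did not overlap. That pattern was seen for 1.16% of the 23873 genes fitted without a filter. In the fit without a filter its log2 fold change was 1.22 (SE 0.451, edgeR quasi-likelihood test, adjusted p = 0.852) with an unadjusted p of 0.00682, and 1.52% of the genes were past the study's threshold as higher on the left. The level was close to the study's background of 5.6 normalized counts, and 6 of the 8 libraries were above it, the exceptions being the right sides of L46-8 and L49-3. Tenm2 was thus low everywhere, with a left excess that did not pass correction over all genes.

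Adgrl3, a latrophilin of the brain that has been linked to attention deficit disorder, went the other way in most embryos. Its reads, left against right, were 23 against 9 for L29-3, 27 against 55 for L43-5, 8 against 18 for L46-8, and 11 against 13 for L49-3. In the fit without a filter the log2 fold change was -0.53 (SE 0.300, edgeR quasi-likelihood test, adjusted p = 0.997). The log2 ratio of left to right CPM, with 0.5 added to each, was 0.70 in L29-3 and -0.71, -1.68 and -0.34 in L43-5, L46-8 and L49-3.

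Neural tube markers had the direction of Adgrl3. They are named here for that reason, out of several marker lists examined, so the match is a description. Their summed normalized count was higher on the left in L29-3 (log2 ratio 0.25) and lower in L43-5 (-0.88), L46-8 (-0.50) and L49-3 (-0.19), the same signs as Adgrl3 in 4 of 4 embryos. Of the 9 neural tube markers 7 were tested, and 0 of these 7 had a log2 fold change above 0, with a median of -0.28. Sox1, with a log2 fold change of -0.98 and an unadjusted p of 0.0167, was past the study's threshold as higher on the right. So was Pax6, with -0.83 and an unadjusted p of 0.0142, as were 1.42% of all tested genes (edgeR quasi-likelihood test). The summed level was 413 to 966 on the left and 566 to 1098 on the right. No marker of the list was at 0 in all libraries, and Dbx1 and Olig2 were at 9 and 27 reads in total. Their part in the Adgrl3 counts was not tested.

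**Figure D5:**
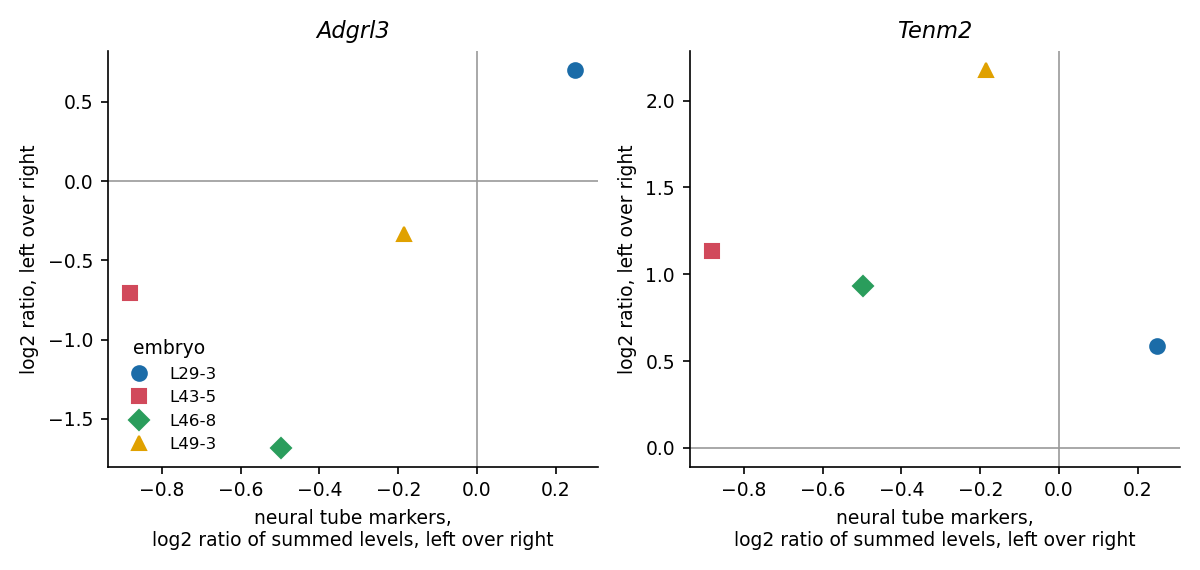
log2 ratio of left to right in each embryo for Adgrl3 and Tenm2 (vertical, CPM with 0.5 added) against that of the summed neural tube markers (horizontal), 1 point per embryo. Adgrl3 has the sign of the markers in each embryo, whereas Tenm2 is above 0 in each embryo whichever side held more of the markers.

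Tenm2 was higher on the left in L29-3, where the neural tube markers were higher on the left, and in the other 3 embryos, where they were lower. The direction of Tenm4 is fixed by its selection and was not compared with these markers.

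Markers of cranial neural crest are named here for the direction of their sum, out of several marker lists examined. The sum was not tested, so this is a description. The summed level of the 9 markers was the larger on the left in each embryo, at 394 to 492 on the left and 327 to 438 on the right. The log2 ratios were 0.07, 0.02, 0.16 and 0.59 in L29-3, L43-5, L46-8 and L49-3. Twist1, Ets1 and Erbb3 held most of the sum, with means of 213, 120 and 47.0 normalized counts. Sox10, Foxd3 and Tfap2b had means of only 3.96, 2.27 and 3.56. Of the 9 markers 3 were tested, with log2 fold changes of 0.27 for Twist1, 0.13 for Erbb3 and -0.02 for Ets1, and 0 passed the threshold. Sox10 and Foxd3 were at 30 and 18 reads in total. Tenm4 was selected for the same direction, so a likeness to it carries no weight, and the part of these cells in its values was not tested.

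Differences between embryos were compared next. The left and right libraries of an embryo stood for the spread within it, so p compares embryos with the sides of a single embryo. Differences of stage or dissection between embryos cannot be told apart here. The embryo means of a member spanned 0.15 on the log2 scale for Adgrl2 to 0.38 for Tenm4. By the quasi-likelihood test of the embryo terms in the same edgeR fit, the unadjusted p was 0.0102 for Tenm4 and 0.0140 for Tenm3, both no higher than 0.05, as it was for 9.99% of all tested genes. The adjusted p was 0.284 for Tenm4 and 0.317 for Tenm3. The Tenm4 test is not independent of the choice of the gene, since an even side difference lowers the spread left after the side term, and without that term its unadjusted p was 0.135. By the adjusted p, 0 of 6 members differed between embryos, against 0.174% of all genes. DESeq2 gave 0 members at either threshold, with an unadjusted p of 0.102 for Tenm4 and 0.145 for Tenm3.

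The teneurins differed in which embryo stood out. Tenm3 was lowest in L49-3, with a mean of 353 normalized counts over its sides, while the other embryos had 432 to 458. Without L49-3 its unadjusted p was 0.649. Tenm4 was lowest in L46-8, with 337, and highest in L29-3, with 436, and without L46-8 its unadjusted p was 0.130. In L49-3, where Tenm3 was lowest, Tenm4 stood at 429, near its highest.

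The 2 Adgrl genes and the 2 FLRT genes differed less between embryos, with unadjusted p of 0.115 for Flrt2, 0.118 for Adgrl1, 0.395 for Flrt3 and 0.555 for Adgrl2 in that edgeR test. L49-3 was the lowest embryo for Tenm3, Adgrl2, Flrt2 and Flrt3, that is for 4 of the 6 members, and L46-8 the highest for the same 4. L49-3 was also the embryo with the fewest counts and the fewest juxta-cardiac field markers, summed to 48.0 and 51.5 normalized counts on its sides against 203 to 425 in the other embryos. Tbx5, a gene of that field, differed between embryos with an adjusted p of 0.0201, and Myh6, a heart myosin, with 0.0470. The part of these in the levels of the 4 members was not tested.

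The spread over the 8 libraries is given beside the spread that counting alone gives, and it holds the differences between embryos and sides. For Flrt3 the coefficient of variation was 7.30% against 6.68% from counting. For Tenm4 it was 16.1% against 5.25%, a spread that includes the side difference on which the gene was selected. Tenm3 had 11.1% against 5.12%, Adgrl1 11.4% against 5.85%, Flrt2 11.1% against 7.49% and Adgrl2 8.35% against 4.88%.

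The known binding partners of these families were mostly expressed, and none of those tested was past the threshold. Of 21 partners and relatives, 14 were tested, 10 with a log2 fold change above 0 and 4 below. Among all tested genes 48.6% had a value above 0. The study's threshold was passed by 0 of the 14, against 1.63% of all tested genes as left-higher and 1.42% as right-higher. The adjusted p called 0 of the 14 and 0.0103% of all tested genes. At such shares, 0 of 14 cannot show that the partners lack a side preference. The median log2 fold change of the 14 was 0.04. No partner had an unadjusted p of at most 0.05 in this edgeR test, against 425 of all 9744 tested genes. The lowest was 0.0613 for Gna12.

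On the cell surface, 6 of 10 partners were tested. Gpc3, a glypican, one of the cell surface proteoglycans that UNC5 receptors can bind, was the highest with a mean of 1351 normalized counts. Dag1, or dystroglycan, had 578, Fgfr1, a receptor of FGF ligands that can associate with FLRT proteins, 469, Unc5b 270 and Robo1 239. Their log2 fold changes lay between -0.02 and 0.09. Unc5c, a netrin receptor, was lower at 87.2 and had a log2 fold change of 0.39 (SE 0.189, edgeR quasi-likelihood test, adjusted p = 0.987). The left value was the larger for L43-5 (129.7 against 82.7) and L46-8 (153.0 against 81.2). For L29-3 (79.4 against 89.1) and L49-3 (35.6 against 46.5) the right value was the larger. Without L29-3 or without L49-3, Unc5c was past the study's threshold. The unadjusted p was 0.0133 and 0.0230, and the adjusted p 0.999 and 0.998 (edgeR quasi-likelihood test). Unc5a and Unc5d had 68 and 28 reads in all, and Cntn6 had 0.

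Inside the cell, 8 of 10 genes were tested. Gna12, one of the G protein subunits that act below adhesion receptors, had a log2 fold change of 0.22 (SE 0.106, edgeR quasi-likelihood test, adjusted p = 0.987). Mbd1, a methyl-CpG binding protein reported to bind the teneurin 1 tail, had 0.20 and the larger count on the left in each embryo (edgeR quasi-likelihood test, adjusted p = 0.987). Gnas counts were uneven, from 17.6 to 249 normalized counts, with the lowest value on the left of L43-5. Without that embryo Gnas passed the study's threshold (log2 fold change 0.73, edgeR quasi-likelihood test, unadjusted p = 0.0204, adjusted p = 0.974). Gna13 and Gnaq had log2 fold changes of 0.01 and -0.08. The fourth latrophilin relative, Adgrl4, an endothelial receptor that lacks the teneurin-binding part, had 42 reads in all.

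The genes whose pattern was most like Tenm4 over the 8 libraries were taken by Pearson's r of log2(CPM + 0.5). They were Zc3h12c (r = 0.967), an RNA-binding zinc finger gene, Thbs1 (0.956), an extracellular matrix glycoprotein, Calcoco1 (0.946), Zc3h10 (0.934) and Smad5 (0.934), a transducer of BMP signals. The 8 libraries share 4 embryos, so the points are not independent and no p is given. Tenm4 was selected for a left excess, which is part of its pattern, so this choice favours genes that are higher on the left. Zc3h12c and Thbs1 had larger left to right log2 fold changes than Tenm4, 0.79 and 0.95, at mean normalized counts of 26.1 and 51.3. The choice was unstable. The 5 genes with the highest Spearman's rho shared 1 gene with these 5, and the 5 chosen without L49-3 shared 0, although each of the first 5 still had r of at least 0.930 there.

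None of the members was among the genes most like Tenm4. Their r with Tenm4 over the 8 libraries was 0.562 for Adgrl1, 0.296 for Adgrl2, -0.150 for Tenm3, -0.229 for Flrt2 and -0.328 for Flrt3. Adgrl1 was at place 647 of 9743 genes in that order, the highest of the 5. Without L49-3 the value of Tenm3 was 0.309 and that of Adgrl2 0.508, while those of Flrt2 and Flrt3 remained below 0 at -0.270 and -0.154.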

How the data were processed

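Poly-A RNA of paired left and right heart fields from 4 embryos was sequenced in 8 stranded paired-end libraries. The authors aligned reads to GRCm38/mm10 with HISAT2, excluded duplicates and deposited raw counts per gene made with featureCounts (Subread); versions other than limma 3.40.6 and the strand setting are not given in the sources used here. From these counts, edgeR 4.0.16 (R 4.3.3, quasi-likelihood, TMM, embryo as a block, Benjamini-Hochberg) fitted the 9744 genes whose normalized count reached 20 in 4 or more libraries. Both sides of an embryo come from the same animal, so they are paired; the correlation of their deviations was -0.02 to 0.44, against -0.39 to 0.26 between embryos. No libraries agreed within sampling noise (smallest chi-square per degree of freedom 1.93 over 28 pairs). Fits were tested on simulated counts. DESeq2 1.42.0, limma-voom 3.58.1, other scalings and filters, and leaving out each embryo were alternatives. Coding sequences were aligned with MAFFT 7.526 and transcripts compared with BLASTN 2.17.0. The members and lists were chosen with earlier results of these data known: all members are named, with listed partners past a call rule or highest in level, the 5 genes most like Tenm4, and markers that move with a member. Further partners were named after their values were seen. Some listed partners are not reported here.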

Additional observations from a re-analysis of the deposited data

Results flagged for a closer look

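A library far from the other 3 of its side was found in 5 of 86 groups of 4 examined (Dixon's test at 95%, which chance alone meets in about 1 of 20 groups). The left library of L49-3 held 376 normalized counts of Tenm3, against 451 to 462 in the other left libraries. The left library of L46-8 held 6.51 of Adgrl3, against 17.0 to 18.6, and 226 of Flrt2, against 188 to 194. On the right, L46-8 was low for Gna12 at 136, against 161 to 163, and L43-5 was low for Gnaq at 161, against 184 to 188. None of these values was of Tenm4.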

How the results depend on the processing

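Of the members other than Tenm4, 0 were past the study's threshold under each setting run but the fit without a filter, which tests all of them and where it was 1 (Tenm2), and 0 had an adjusted p under 0.05 under any. Without the block for the embryo, that is with the sides not treated as paired, that number was 0 and the log2 fold change of Tenm4 was 0.32. Partner genes past the threshold numbered 2 without a filter (Unc5c among them), 1 with limma-voom (Unc5c) and 0 to 2 with 1 embryo left out (Unc5c, Gnas or Gna12). Members with an unadjusted p of at most 0.05 between embryos numbered 0 with DESeq2, 1 without the side term (Tenm4 lost), and 1 to 2 with 1 embryo left out. Without L46-8 the number was 2 although Tenm4 was lost, so a latrophilin or FLRT gene was counted beside Tenm3 there. Of the 5 genes most like Tenm4, 1 was shared under Spearman's rho and 0 without L49-3. The log2 fold change of Flrt3 was -0.0048 to 0.10 with 1 embryo left out, below 0 without L43-5. The cause of these changes was not tested. The log2 fold changes of the other 5 tested members kept their sign in the settings run; the 4 untested members were fitted under 1 setting. The precision is limited by 4 embryos and by 1 to 25 reads per library for Tenm2 and 8 to 55 for Adgrl3.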
